A study of Homo sapiens with 12 samples.

Results

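The result described here is an interaction: the change of each transcript during glucose starvation in OGDH-depleted A375 cells minus its change in control A375 cells. All 12 libraries of the series entered it as a 2 by 2 design with 3 libraries in each of 4 groups, and 18526 of the 61209 gene names in the count table held enough fragments to be tested. A375 is an established human melanoma cell line. The groups were control cells with glucose, control cells starved of glucose for 5 h, OGDH-depleted cells with glucose, and OGDH-depleted cells starved for 5 h, and groups with glucose are called fed below. The sample titles call the OGDH-depleted cells a knockout and the series text calls them a knockdown, and no label says how OGDH was targeted, whether the cells were 1 clone, or what the control cells received. Whether the libraries within a group are separate cultures is not stated by any label, and p-values therefore describe the spread among these libraries, which may be technical. A negative interaction means that a transcript rose less, or fell more, in OGDH-depleted cells than in controls, and a positive one the reverse.

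OGDH encodes the first enzyme of the 2-oxoglutarate dehydrogenase complex, which carries carbon through the mitochondrial citric acid cycle. Cells without glucose lose glycolytic carbon and the sugars used to glycosylate proteins in the endoplasmic reticulum (ER), and misfolded ER proteins then activate the sensors IRE1, PERK and ATF6 of the unfolded protein response. PERK and related kinases slow translation and raise the transcription factor ATF4, which drives genes for amino acid supply and the factor CHOP. Heat shock factor, NRF2 and the mitogen-activated kinases answer damaged proteins, oxidants and surface signals.

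Library totals lay between 21556273 and 25546615 fragments assigned to genes. Levels are given as CPM, counts scaled to library size in 1e6 fragments. OGDH itself was read at 156, 142 and 166 CPM in fed control cells, 129, 133 and 130.5 CPM in starved control cells, 38.1, 45.1 and 36.3 CPM in fed OGDH-depleted cells and 32.3, 33.9 and 32.3 CPM in starved OGDH-depleted cells. The depleted libraries were all below the controls with or without glucose, and the OGDH interaction was -0.04 ± 0.14 (SE) on the log2 scale with an adjusted p of 0.90 in edgeR's quasi-likelihood test, which is the test used throughout, with Benjamini-Hochberg adjustment over all tested genes and a threshold of 0.05. In all, 3 libraries stood apart from the others of their group in the mitochondrial share of fragments and in how counts varied with GC content: these were replicate 3 of both starved groups and replicate 2 of the fed controls. Their mitochondrial shares were 4.11% in the starved control, 9.71% in the starved depleted library and 14.6% in the fed control. The starved depleted library stood apart less clearly in GC content, where replicate 1 departed nearly as far in the other direction. The slopes from that group's mean were 0.173, 0.0307 and -0.204 (log2 per 10 GC points) for replicates 1 to 3. Melanoma markers summed to between 1070 and 1410 CPM in every library, with SOX10 at 299 to 670 CPM and AXL at 308 to 704 CPM, while the pigment genes PMEL, MLANA, TYR, TYRP1 and DCT and the glial gene S100B stayed at or below 2.79 CPM in all 12 libraries. Of 14 markers of blood, vessel, epithelial and other cells, 3 were tested, with sums of 12.5 to 17.4 CPM.

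The interaction was called for 3196 genes, 17.3% of those tested. In bulk RNA, fewer transcripts per cell and fewer cells with the transcript cannot be told apart. A negative interaction was called for 1659 genes (8.95% of those tested) and a positive one for 1537 (8.3%), and 1001 and 819 of them differed by at least 2-fold. Starvation alone changed 6400 genes in control cells (34.5% of those tested), of which 3151 rose (17%) and 3249 fell (17.5%). In OGDH-depleted cells it changed 1330 genes (7.18%), of which 448 rose (2.42%) and 882 fell (4.76%). The median interaction over all tested genes was 0.01, and the median standard error of an interaction was 0.305 (log2). Leaving out OGDH-depleted replicate 1, 2 or 3 gave 629, 631 or 639 genes there, and leaving out replicate 2 or 3 of the starved depleted libraries gave 583 or 607. Without the 3 libraries that stood apart, a set chosen after seeing the data, the interaction was called for 8077 genes (43% of those tested). Of the 3196 genes, 2973 were among them, all in the same direction.

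Most genes with an interaction were genes that moved in starved control cells with no call in starved depleted ones. Among the 1659 with a negative interaction, 1200 (72.3%) rose in controls with no call in depleted cells, 111 rose in both, and 84 rose in controls and fell in depleted cells. Another 155 (9.34%) fell in depleted cells with no call in controls, 11 fell in both and 98 were called in neither response. Among the 1537 with a positive interaction, 1303 (84.8%) fell in controls with no call in depleted cells, 42 fell in both, 47 fell in controls and rose in depleted cells, 47 rose in depleted cells alone, 2 rose in both and 96 were called in neither. The counts of 155 and of 47 that responded in depleted cells alone were 84 and 18 without OGDH-depleted replicate 1, 78 and 19 without replicate 2, 92 and 15 without replicate 3, 86 and 19 without starved OGDH-depleted replicate 2, and 77 and 19 without its replicate 3, and the second count was 27 without control replicate 3. They were 218 and 93 with DESeq2 and 263 and 105 without the 3 outlying libraries.

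The 4 group means show which group was highest or lowest for each gene. The starved controls held the highest mean of the 4 groups for 88.8% of the genes with a negative interaction, against 35.1% of all tested genes. They held the lowest mean for 93.8% of the genes with a positive interaction, against 35.8% of all tested genes. Among genes with a negative interaction, fed controls held the lowest mean for 49.4% and starved depleted cells for 37.1%. Of all tested genes those shares were 19% and 19.5%. Among genes with a positive interaction, these groups held the highest mean for 55.5% and 33.4%, against 21.3% and 19.6% of all tested genes. All these shares follow in part from the contrast, which contains the libraries of all 4 groups. Genes with a negative interaction had a median log2 change of 1.01 on starvation in controls and -0.0874 in depleted cells, and the median difference between depleted and control cells was 0.205 with glucose and -0.97 without it. For genes with a positive interaction those medians were -0.927, 0.105, -0.2 and 0.836.

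**Figure D1:**
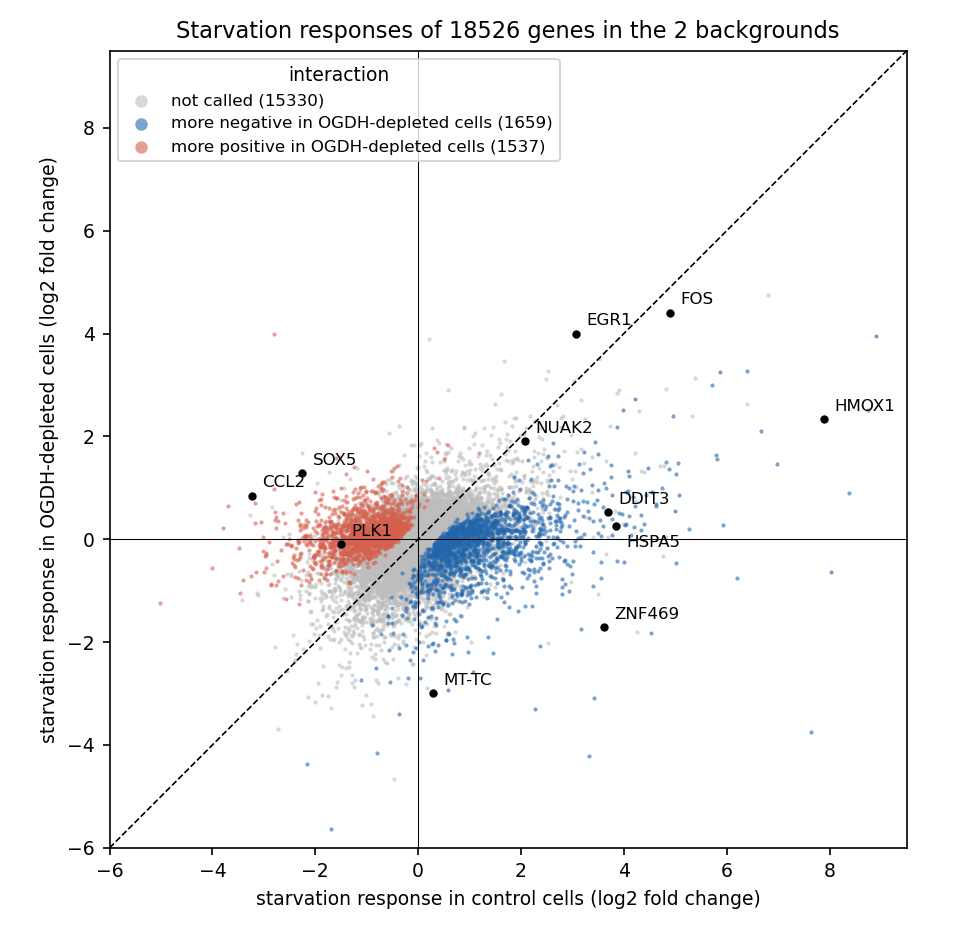
Each point is 1 of 18526 tested genes, with its log2 starvation response in control cells on the horizontal axis and in OGDH-depleted cells on the vertical axis. The dashed line marks equal responses, blue points are the 1659 genes with a negative interaction, red points the 1537 with a positive one, and grey points were not called. Blue points extend to the right along the horizontal zero line and red points to the left, while FOS, EGR1 and NUAK2 lie near the line of equality.

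Of the 1438 genes that rose at least 2-fold in starved controls, 208 rose, 27 fell and 1203 were not called in depleted cells, and 834 (58%) had a negative interaction. Their median log2 response was 1.56 in controls, the response they were selected on, and 0.295 in depleted cells. Of the 1322 genes that fell at least 2-fold in starved controls, 194 fell, 13 rose and 1115 were not called in depleted cells, and 692 (52.3%) had a positive interaction, with medians of -1.36 and -0.231. In all, 674 genes were called in the same direction in both responses, and for 508 of these no interaction was called. The opposite direction in the 2 responses was called for 131 genes, a count that was 215 with DESeq2, 361 without the 3 outlying libraries, 265 with an offset for each library's trend on GC content (the GC offset, chosen after seeing the data, as was leaving out the 3 libraries), 83 with no filter on low counts, 53, 51 or 63 when OGDH-depleted replicate 1, 2 or 3 was left out and 50 or 61 when replicate 2 or 3 of the starved depleted libraries was.

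The gene lists below were grouped by role, and each was described by the number of its tested members called for the interaction and by its median, to be read beside 8.95% of tested genes called lower, 8.3% called higher and a median of 0.01 for all genes. Their counts in the 2 responses are read beside the shares of 17% and 17.5% that rose and fell in controls and 2.42% and 4.76% in depleted cells. With the 3 outlying libraries left out, 22.9% of tested genes were called lower and 20.1% higher, and some list counts given below moved by more than 1.5 times. They became 11 lower and 1 higher for ER-associated degradation, 14 and 6 for hexosamine and N-glycan genes, 8 and 5 for MAPK output, 3 and 6 for NF-kB genes, 6 and 4 for hypoxia targets, 8 and 3 for lysosome genes, 6 and 6 for p53 targets, 5 and 2 for melanoma markers, 6 and 2 for unfolded protein response factors, and none and 2 for metallothionein and zinc genes.

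**Figure D2:**
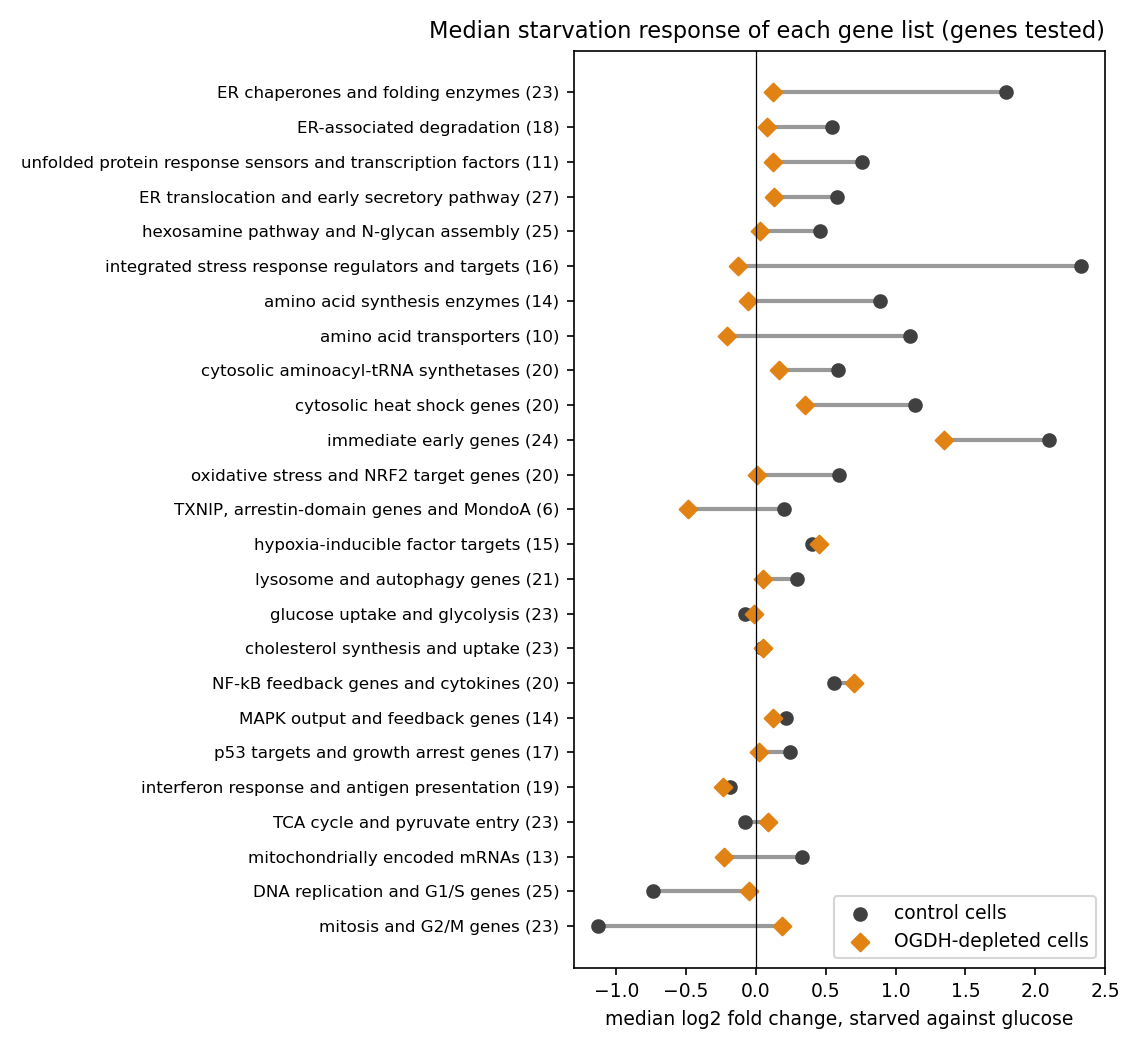
For 25 gene lists, the circle is the median log2 starvation response of the tested members in control cells and the diamond the median in OGDH-depleted cells, joined by a line. The integrated stress response and ER chaperone circles stand at 2.33 and 1.79 with diamonds at -0.127 and 0.124, the immediate early diamond stays at 1.35, and the mitotic circle stands at -1.13 with its diamond at 0.19.

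Most ER chaperones and folding enzymes rose in starved controls and had no called response in starved depleted cells. Of 23 members, all tested, 19 had a negative interaction and none a positive one, with a median of -1.67. In controls 22 rose on starvation and none fell (median 1.79), and in depleted cells none was called in either direction (median 0.124). TXNDC5, ERO1A, SIL1 and DNAJC10 were the 4 members without a called interaction, at -0.38, -0.42, -0.66 and -0.77. FKBP2 passed the filter on low counts through the starved controls alone, and 18 of the other 22 were lower. Passing in that way favours a lower call. Of the 450 tested genes that did so, 75 were called lower and 0 higher. With the 3 outlying libraries left out, 21 members were called lower, when 22.9% of all tested genes were.

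The ER stress response element, bound by ATF6 with NF-Y, was looked for as the letters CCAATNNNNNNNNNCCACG on either strand, because it is the textbook element of these chaperones. The 300-base windows ran from 250 bases before to 50 bases after each RefSeq gene start on GRCh38.p14, and 11816 of the 18526 tested genes matched a window by symbol. The element was present in 22 of 27305 windows (0.0806%) and in 6 of the 22 chaperone windows found (27.3%): HSPA5, HSP90B1, CALR, CANX, ERO1B and CRELD2. The sequences below show it in 3 of these and in XBP1, with the matched letters in capitals, read 5′ to 3′ on the gene's own strand, where HSP90B1 holds 2 matches and a match beginning CGTGG lies on the opposite strand.
HSPA5, chr9:125241344-125241483, minus strand: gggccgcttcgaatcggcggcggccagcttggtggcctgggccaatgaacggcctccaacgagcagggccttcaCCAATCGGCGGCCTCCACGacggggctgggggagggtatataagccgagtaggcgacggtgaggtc
HSP90B1, chr12:103930201-103930354, plus strand: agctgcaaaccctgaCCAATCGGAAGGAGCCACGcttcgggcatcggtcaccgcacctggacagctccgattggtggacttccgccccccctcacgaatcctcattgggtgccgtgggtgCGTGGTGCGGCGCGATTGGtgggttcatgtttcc
CRELD2, chr22:49918539-49918587, plus strand: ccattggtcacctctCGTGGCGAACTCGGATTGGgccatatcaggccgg
XBP1, chr22:28800588-28800636, minus strand: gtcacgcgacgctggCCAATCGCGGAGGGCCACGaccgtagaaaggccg

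Among the 16 tested genes with this element, 12 had a negative interaction (75.0%, against 9.48% of tested genes with a window), 1 had a positive one and 3 were not called. Besides the 6 chaperones, the 12 were XBP1, ALG12, SERP1, FICD, FRG2B and FRG2C. FRG2B and FRG2C are near-identical copies at low levels, so their counts are uncertain. Both passed the filter on low counts through the starved controls alone, which favours a lower call. Without them 10 of 14 genes were lower (71.4%). ZNF17, a zinc finger gene, had the positive interaction, and EIF2A, TMEM120A and TRIM5 were not called. A match describes letters in a window and is not evidence of a bound site.

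HSPA5 encodes BiP, the main ER Hsp70 chaperone, and lies at chr9:125234853-125241382. It was read at 836, 752 and 807 CPM in fed control cells, 11307, 10839 and 12190.3 CPM in starved control cells, 693, 681 and 682 CPM in fed OGDH-depleted cells and 852, 826 and 787 CPM in starved OGDH-depleted cells. The 3 starved control libraries were more than 10 times above each of the other 9, and the starved depleted libraries lay just above the fed depleted ones without overlap. The means were 798 ± 42.7 and 11446 ± 686 CPM in controls and 685 ± 6.75 and 821 ± 32.8 CPM in depleted cells (SD, n = 3 libraries per group, as for all means below). On the log2 scale the response was 3.84 in controls and 0.26 in depleted cells (edgeR adjusted p = 0.12), and the interaction was -3.58 ± 0.14 (SE) (edgeR adjusted p = 3.2e-07).

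HYOU1, the ER exchange factor and chaperone that works with BiP, was read at 344, 344 and 343 CPM in the fed controls and 1882, 1806 and 1728 CPM in the starved controls, against 318, 341 and 311 CPM in the fed depleted cells and 290.3, 305 and 302 CPM in the starved depleted cells. Only the starved controls stood above the rest, and the interaction was -2.504 ± 0.12 (SE) (edgeR adjusted p = 7.3e-07). DNAJC3, a BiP cochaperone that also inhibits eIF2α kinases, gave 39.4, 44.8 and 39.2 CPM with glucose and 231, 208 and 204 CPM without it in control cells, and 40.2, 40.6 and 44.1 CPM with glucose and 42.2, 43.9 and 47.9 CPM without it in OGDH-depleted cells. Its depleted libraries overlapped between conditions, and its interaction was -2.28. The lectin chaperone CALR, the secreted ER stress protein CRELD2 and the chaperone HSP90B1 had interactions of -1.19, -2.68 and -1.67. DNAJB9, another BiP cochaperone, was at 12.6, 12.6 and 15 CPM in depleted cells with glucose and 18.9, 17 and 23.3 CPM when they were starved, a small separation beside the change from 11.5 to 115 CPM in controls.

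ER-associated degradation removes misfolded proteins from the ER. Of its 18 tested genes (19 listed), 7 had a negative interaction and none a positive one (median -0.527), 10 rose in controls and none was called in depleted cells. HERPUD1, a membrane scaffold of the degradation complex, was read at 51.9, 41.2 and 52.2 CPM in fed control cells, 546, 548 and 652 CPM in starved control cells, 73.1, 68.5 and 67.7 CPM in fed OGDH-depleted cells and 91.4, 83.1 and 75.5 CPM in starved OGDH-depleted cells. The starved controls did not overlap any other group, and the interaction was -3.33 ± 0.17 (SE) (edgeR adjusted p = 1.2e-06). SYVN1, the ubiquitin ligase of the complex, had an interaction of -1.92 ± 0.14 (SE) and its partner SEL1L one of -1.87. The cytosolic extraction factors VCP, UFD1 and NPLOC4 were not called in either response.

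Among 11 tested unfolded protein response sensors and factors (12 listed), 4 had a negative interaction and 1 a positive one (median -0.416). The median was -0.836 with a stricter filter on low counts, which left no positive call, -0.789 with no filter and -0.768 without the 3 outlying libraries. XBP1, the transcription factor whose mRNA is spliced by IRE1, was at 62.5, 58.7 and 58.4 CPM in fed control cells, 244, 223 and 231 CPM in starved control cells, 88.3, 88.5 and 85.2 CPM in fed OGDH-depleted cells and 72.4, 74.3 and 71.8 CPM in starved OGDH-depleted cells. Starvation raised it in controls, by 1.96, while the starved depleted libraries lay below the depleted libraries with glucose, a difference of -0.26 that missed the threshold (edgeR adjusted p = 0.065). Its interaction was -2.22 ± 0.11 (SE) with an edgeR adjusted p of 9.9e-07. ERN1, which encodes IRE1, went from 11.3 ± 0.314 to 57.7 ± 1.15 CPM in controls and from 13 ± 0.262 to 14.2 ± 1.34 CPM in depleted cells, an interaction of -2.23 ± 0.13 (SE). EIF2AK3, which encodes PERK, had an interaction of -1.45, and CREB3L2 one of -1.22. CREB3L1, a membrane-bound factor of the same family as CREB3L2, was the member with a positive interaction (1.71). The counts are of genes and hold no measure of XBP1 splicing.

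In the ER translocation and early secretory list, 9 of 27 members had a negative interaction and none a positive one (median -0.455), and 14 rose in controls against none in depleted cells. That became 17 lower and 1 higher when the 3 outlying libraries were left out. SEC24D, a coat protein of ER export vesicles, went from 59.5 ± 9.07 to 217 ± 35 CPM in controls and from 51.4 ± 3.76 to 62.4 ± 7.38 CPM in depleted cells, and SEC11C, a signal peptidase subunit, had an interaction of -0.85 ± 0.11 (SE). In the hexosamine and N-glycan list, which makes the sugar donors and glycans used in the ER, 9 of 25 members were called lower and 1 higher (median -0.381). GFPT1, the first enzyme of the hexosamine pathway, was read at 60.02, 79.5 and 59.6 CPM in the fed controls and 261, 267 and 220.4 CPM in the starved controls, against 84.6, 80.9 and 80.5 CPM in the fed depleted cells and 85.4, 91.4 and 101 CPM in the starved depleted cells. Its starved controls were above all other libraries, with an interaction of -1.73 ± 0.18 (SE) (edgeR adjusted p = 7.4e-05). UAP1, which makes UDP-GlcNAc, had an interaction of -1.94 ± 0.13 (SE). OGT, which attaches O-GlcNAc to proteins, had a negative interaction of -0.79, and OGA, which removes it, the positive one of 0.61. The list's count called higher was 0 without OGDH-depleted replicate 1 or 2, and 2 with DESeq2, upper-quartile scaling or the GC offset.

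**Figure D3:**
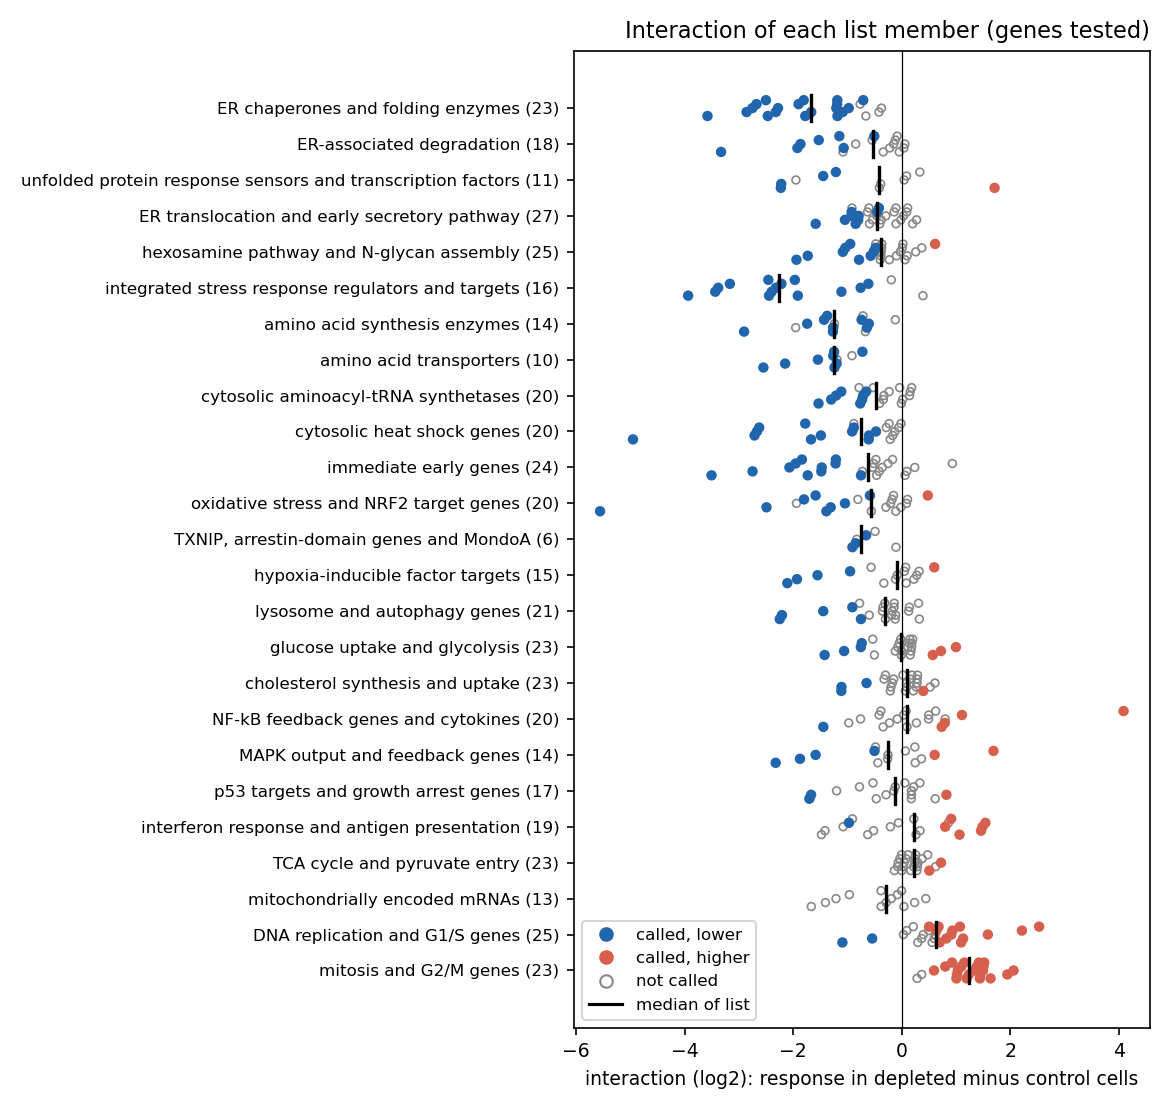
Each symbol is 1 tested gene placed by its interaction (log2, horizontal axis) in the row of its list, filled where called, open where not, and the bar is the list's median. The 19 filled ER chaperones and 14 filled integrated stress response genes lie left of 0, the 21 filled mitotic genes lie right of it, and the 13 mitochondrially encoded mRNAs are all open.

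The integrated stress response list had the lowest median interaction of the 28 lists in the main fit, at -2.27. Without the 3 outlying libraries its median was -1.89, and that of the mitochondrially encoded mRNAs was lower, at -2.3. Of its 16 tested genes (18 listed), 14 had a negative interaction and none a positive one. In controls 14 rose and 1 fell (median 2.33), and in depleted cells 2 rose and none fell (median -0.127). ATF5 and VLDLR were the members without a called interaction. The median difference between depleted and control cells was 0.72 with glucose, and CHAC1, TRIB3 and STC2 were higher in every fed depleted library than in every fed control.

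DDIT3 encodes CHOP, a factor tied to cell death in ER stress. It was read at 14.1, 11 and 14.5 CPM in fed control cells, 154, 161 and 199 CPM in starved control cells, 17.3, 14.1 and 13.7 CPM in fed OGDH-depleted cells and 23.7, 23.2 and 18.3 CPM in starved OGDH-depleted cells. The starved controls stood above the other 9 libraries, the interaction was -3.17 ± 0.22 (SE) (edgeR adjusted p = 6.6e-06), and the change of 0.53 in depleted cells missed the threshold (edgeR adjusted p = 0.068). ATF4, the central factor, was at 451, 331 and 451 CPM with glucose and 578, 600.4 and 734 CPM without it in control cells, and 566, 577 and 586 CPM with glucose and 579, 545 and 461 CPM without it in OGDH-depleted cells. Starved controls had the highest mean, but 1 of them, at 578 CPM, lay within the range of the depleted libraries, which overlapped between conditions, with an interaction of -0.76 ± 0.20 (SE) (edgeR adjusted p = 0.024). That call was lost without any 1 of OGDH-depleted replicates 1 to 3 or without starved OGDH-depleted replicate 3, where the adjusted p reached 0.0763. Without the 3 outlying libraries the ATF4 interaction was called at -0.4359. ATF4 protein is controlled mainly by translation, which these counts do not measure.

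CHAC1, a glutathione-degrading enzyme induced by ATF4, was at 13.7, 6.1 and 12.5 CPM in fed control cells, 67.6, 60.7 and 119 CPM in starved control cells, 58, 49.5 and 53.1 CPM in fed OGDH-depleted cells and 36.5, 25.1 and 18.7 CPM in starved OGDH-depleted cells. In depleted cells the starved libraries all lay below the fed ones, a change of -1.002 (edgeR adjusted p = 0.094), and the interaction was -3.94 ± 0.48 (SE) (edgeR adjusted p = 2.3e-04). TRIB3, a pseudokinase that feeds back on CHOP and ATF4, was at 79.9, 47.2 and 78.2 CPM in the fed controls and 509.6, 408 and 736 CPM in the starved controls, against 158, 143 and 149 CPM in the fed depleted cells and 141, 110.3 and 83.8 CPM in the starved depleted cells. Here too fed depleted cells lay above fed controls and starved depleted cells lay below fed depleted ones, a change of -0.43 that was not called (edgeR adjusted p = 0.32), and the interaction was -3.44. For CHAC1 and TRIB3 the 3 outlying libraries held the lowest fed control, highest starved control and lowest starved depleted values. CEBPG, a partner of ATF4 in DNA binding, had an interaction of -2.22 ± 0.15 (SE). The interactions of SESN2, a leucine sensor that restrains mTORC1, and STC2, a secreted glycoprotein, were -3.38 and -2.45.

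A pair of members kept a called rise in depleted cells. PPP1R15A encodes GADD34, which directs the phosphatase that reverses eIF2α phosphorylation, and was read at 208, 163 and 208 CPM with glucose and 1637, 1712 and 1984 CPM without it in control cells, and 322, 316 and 315 CPM with glucose and 858, 777 and 688 CPM without it in OGDH-depleted cells. Starvation separated the groups in both backgrounds, by 3.20 in controls and 1.28 in depleted cells, and the interaction was -1.92 ± 0.18 (SE) (edgeR adjusted p = 3.6e-05). ATF3, a stress-induced repressor, rose by 2.73 and 1.61, with an interaction of -1.11.

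Of 14 synthesis enzymes 9 had a negative interaction (median -1.25), of 10 tested transporters (11 listed) 8 did (median -1.24), and of 20 cytosolic tRNA synthetases 8 did (median -0.469), with no positive call in any of the 3 lists. In controls 12, 8 and 11 of them rose, and in depleted cells none rose and 2 transporters fell. The median difference between depleted and control cells with glucose was 0.845, 0.581 and 0.253. The transporter count was 5 without starved OGDH-depleted replicate 2 and between 6 and 9 without any other single library. When the 3 outlying libraries were left out the counts called lower were 11, 8 and 12, with 2 synthetases called higher. The medians were then -0.839 for synthesis enzymes, -1.53 for transporters and -0.578 for synthetases.

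The C/EBP-ATF response element, where ATF4 and C/EBP factors bind, was looked for as TGATGNAA on either strand. It occurred in 3.67% of all windows and 1.86% of the windows of tested genes. Its share was 2.77% for genes with a negative interaction and 1.99% for those with a positive one. Among the lists it occurred in 3 of 15 integrated stress response windows (20%), 3 of 9 synthesis enzymes (33.3%), 3 of 9 transporters (33.3%) and 6 of 16 synthetases (37.5%). It is shown in capitals for ASNS and, on the opposite strand, for CHAC1.
ASNS, chr7:97872454-97872491, minus strand: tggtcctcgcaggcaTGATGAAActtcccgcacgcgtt
CHAC1, chr15:40953247-40953284, plus strand: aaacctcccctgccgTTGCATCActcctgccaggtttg

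ASNS, asparagine synthetase, whose element is a textbook ATF4 site, was read at 4.68, 6.1 and 4.81 CPM in fed control cells, 22.2, 21.4 and 15.7 CPM in starved control cells, 13.9, 14.5 and 11.5 CPM in fed OGDH-depleted cells and 12.6, 15.7 and 17 CPM in starved OGDH-depleted cells. Fed depleted libraries were above fed controls and overlapped with starved depleted libraries, while starved controls had the highest mean and overlapped with starved depleted libraries. The interaction was -1.74 ± 0.25 (SE) (edgeR adjusted p = 6.6e-04), and the difference with glucose was 1.36 (edgeR adjusted p = 0.0027). MTHFD2, a mitochondrial folate enzyme, had the same order, at 178 ± 1.19 and 435 ± 24.7 CPM in controls and 331 ± 9.06 and 336 ± 13.1 CPM in depleted cells. CTH, the last enzyme of cysteine synthesis by transsulfuration, was at 12.6, 16.7 and 14.8 CPM in the fed controls and 133, 134 and 103 CPM in the starved controls, against 26.5, 28.1 and 24.9 CPM in the fed depleted cells and 28.5, 31.7 and 29.1 CPM in the starved depleted cells. The interaction of CTH was -2.91 ± 0.19 (SE) (edgeR adjusted p = 3.8e-06), with starved controls above every other library.

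SLC1A4, a neutral amino acid transporter, was at 12.5, 10.8 and 11.4 CPM with glucose and 59.2, 55.4 and 64.5 CPM without it in control cells, and 31.8, 31.8 and 30.7 CPM with glucose and 29.98, 27.4 and 25.4 CPM without it in OGDH-depleted cells. Fed depleted libraries lay above fed controls, the starved depleted libraries did not exceed them, and the interaction was -2.55 ± 0.15 (SE) (edgeR adjusted p = 2.3e-06). SLC7A1, a cationic amino acid transporter, rose by 1.05 in controls and fell by 0.49 in depleted cells (edgeR adjusted p = 0.0084). SLC6A9, a glycine transporter, was the other one that fell in depleted cells, with a change of -0.64. WARS1 and SARS1, which charge the tRNAs for tryptophan and serine, had interactions of -1.54 ± 0.15 (SE) and -1.21 ± 0.14 (SE).

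Cytosolic heat shock genes rose in starved controls, and several rose by less in starved depleted cells. Of 20 tested genes (21 listed), 12 had a negative interaction and none a positive one (median -0.749). In controls 17 rose and in depleted cells 8 rose, with none falling in either (medians 1.14 and 0.353). Leaving out single libraries gave 8 to 13 genes called lower.

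The heat shock element was looked for as TTCNNGAANNTTC on either strand, and was found in 0.487% of all windows, 0.322% of tested genes' windows and 4 of 18 heat shock windows (22.2%): HSPA6, HSPA8, DNAJA1 and CHORDC1. It is shown for HSPA6 and for the 2 matches of HSPA8, of which the first lies on the opposite strand.
HSPA6, chr1:161524451-161524493, plus strand: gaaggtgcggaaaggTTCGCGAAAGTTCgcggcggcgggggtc
HSPA8, chr11:123062164-123062381, minus strand: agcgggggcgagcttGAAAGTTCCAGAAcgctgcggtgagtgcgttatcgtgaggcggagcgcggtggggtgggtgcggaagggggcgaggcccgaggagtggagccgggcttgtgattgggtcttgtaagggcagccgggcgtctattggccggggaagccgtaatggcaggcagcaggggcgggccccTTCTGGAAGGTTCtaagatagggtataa

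HSPA6, a strictly stress-induced Hsp70, was read at 0.991, 0.476 and 0.712 CPM in fed control cells, 285, 269.7 and 503 CPM in starved control cells, 0.48, 1.02 and 0.933 CPM in fed OGDH-depleted cells and 14, 12.7 and 10.9 CPM in starved OGDH-depleted cells. Both starved groups stood above their fed groups, and the starved depleted libraries lay far below the starved controls. Its copy HSPA7 is nearly identical, and HSPA1A shares sequence with HSPA1B in the same way, so their counts are uncertain. HSPA8, the constitutive Hsp70, was at 3925, 4863 and 4371 CPM in the fed controls and 10733, 10511 and 8297 CPM in the starved controls, against 3544, 3858 and 3826 CPM in the fed depleted cells and 3727, 4392 and 5235 CPM in the starved depleted cells. Its depleted libraries overlapped between conditions, and the interaction was -0.92.

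BAG3, an Hsp70 cochaperone of selective autophagy, was at 196, 203 and 225 CPM in fed control cells, 1273, 1330.3 and 1226 CPM in starved control cells, 176, 189.7 and 167 CPM in fed OGDH-depleted cells and 281, 327 and 345 CPM in starved OGDH-depleted cells. It rose in both backgrounds, by 2.62 in controls and 0.84 in depleted cells (edgeR adjusted p = 8.3e-04), with an interaction of -1.78 ± 0.15 (SE) (edgeR adjusted p = 1.7e-05). DNAJB1, the main cochaperone of inducible Hsp70, was at 242, 184 and 239 CPM with glucose and 2796, 3019 and 3884 CPM without it in control cells, and 216, 224 and 249 CPM with glucose and 1127, 1055 and 965 CPM without it in OGDH-depleted cells. It too rose in both, with an interaction of -1.67. HSPB8, a small heat shock protein and partner of BAG3, was at 14.3 ± 0.605 CPM in fed and 14.5 ± 1.62 CPM in starved depleted cells, against 13.2 ± 1.67 and 85.4 ± 13.7 CPM in controls. CHORDC1, an Hsp90 partner, rose in both and showed no called interaction (-0.13).

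Oxidative stress genes were mixed. Of 20 NRF2 targets and related genes, 8 had a negative interaction and 1 a positive one (median -0.576), and 11 rose in controls against 1 in depleted cells. Without the 3 libraries that stood apart the counts were 11 lower and 6 higher. HMOX1, the haem-degrading enzyme, was at 18.1, 9.82 and 16.6 CPM in fed control cells, 3241, 2776 and 4611 CPM in starved control cells, 27.3, 22.6 and 25.8 CPM in fed OGDH-depleted cells and 150.3, 129 and 104 CPM in starved OGDH-depleted cells. The starved depleted libraries lay above both fed groups and far below the starved controls, with an interaction of -5.56 ± 0.36 (SE) (edgeR adjusted p = 3.8e-06). HMOX1 was the 1 member that rose in depleted cells. TXNRD1, thioredoxin reductase, was at 393, 403 and 365 CPM with glucose and 1339, 1197 and 1188 CPM without it in control cells, and 586, 564 and 608 CPM with glucose and 538, 522 and 556 CPM without it in OGDH-depleted cells. Its interaction was -1.80 ± 0.13 (SE), while the change in depleted cells was -0.12 (edgeR adjusted p = 0.40). SQSTM1, an autophagy receptor, the ferritin chains FTH1 and FTL, the glutathione synthesis subunits GCLM and GCLC and OSGIN1 were the other 6 lower members. The pentose phosphate enzymes PGD, TALDO1 and TKT were not called in either response. ABCC2, a drug exporter, had the positive interaction (0.48). In the metallothionein and zinc list, 3 of 7 genes were tested and the zinc exporter SLC30A1 alone was called, at 0.49 ± 0.14 (SE), a call that 13 of 19 alternative settings lost.

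Immediate early genes are the first transcripts made after growth factor or stress signals. Of 24 members, 23 rose in controls and 16 in depleted cells, where 1 fell (medians 2.1 and 1.35). An interaction was called for 11, all negative (median -0.633). Leaving out the 3 outlying libraries gave 16.

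FOS, a subunit of AP-1, was read at 13.2, 11.9 and 15.6 CPM in fed control cells, 370.3, 389 and 447 CPM in starved control cells, 10.8, 12.4 and 11.4 CPM in fed OGDH-depleted cells and 251, 254 and 229 CPM in starved OGDH-depleted cells. All starved libraries stood above all fed ones in both backgrounds. The responses were 4.89 and 4.41, and the interaction of -0.48 ± 0.17 (SE) was not called (edgeR adjusted p = 0.072, 95% interval -0.84 to -0.11), although it passed in DESeq2 (adjusted p = 0.0415), without control replicate 3 (edgeR adjusted p = 0.0367) and with a GC offset chosen after seeing the data (edgeR adjusted p = 0.0211).

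EGR1, a zinc finger factor induced by ERK, was at 164, 361 and 230.3 CPM with glucose and 2712, 2516 and 1111 CPM without it in control cells, and 166, 192 and 131 CPM with glucose and 1632, 2444 and 3743 CPM without it in OGDH-depleted cells. Starved and fed libraries did not overlap, the spread within groups was wide, and the interaction of 0.93 ± 0.55 (SE) was not called (edgeR adjusted p = 0.29). CCN1, a matrix protein, rose by 1.71 and 1.95. NR4A2, a nuclear receptor, rose by 2.10 and 2.16. For neither was an interaction called.

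KLF4, DUSP1, ARC and ZFP36 had negative interactions. KLF4, a zinc finger factor, was at 11.9, 11.2 and 11.2 CPM in fed control cells, 69.6, 68 and 79.6 CPM in starved control cells, 19.8, 18.3 and 17.4 CPM in fed OGDH-depleted cells and 29.4, 28.9 and 25.5 CPM in starved OGDH-depleted cells. It rose in both, by 2.66 and 0.59, with an interaction of -2.07 ± 0.15 (SE) (edgeR adjusted p = 6.5e-06). KLF2, a related factor, went from 14 ± 1.58 to 58.2 ± 1.07 CPM in controls and from 20.3 ± 2.29 to 21.7 ± 1.89 CPM in depleted cells. DUSP1, a phosphatase that switches off JNK and p38, was at 14.7, 10.2 and 14.9 CPM in the fed controls and 199, 197 and 276 CPM in the starved controls, against 13.5, 13.5 and 11.8 CPM in the fed depleted cells and 36.3, 34.9 and 26.4 CPM in the starved depleted cells. Both starved groups were above their fed groups, and the interaction was -2.75. ARC had an interaction of -3.51 and ZFP36, which destabilises cytokine mRNAs, one of -1.48. BTG2, an antiproliferative gene, was the 1 member that fell in depleted cells, from 22.6 ± 0.236 to 12.1 ± 0.901 CPM, while it rose in controls.

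In the MAPK output list, which reads ERK activity, 4 of 14 genes were lower and 2 higher for the interaction (median -0.259). Only 1 was called higher with no filter, with the replicate block and without any 1 of 8 libraries (replicate 2 of the fed controls, 1 and 3 of the starved controls, 2 and 3 of the starved depleted cells, and all fed depleted ones), and the median was -0.11 without starved control replicate 1 and -0.412 without the 3 outlying libraries. DUSP5, a nuclear ERK phosphatase, was at 47.4, 36.9 and 43.9 CPM in fed control cells, 447, 391 and 494 CPM in starved control cells, 87.6, 86.6 and 88.6 CPM in fed OGDH-depleted cells and 186, 182 and 177 CPM in starved OGDH-depleted cells. It rose in both backgrounds with an interaction of -2.32 ± 0.16 (SE) (edgeR adjusted p = 4.9e-06). SPRY4, a feedback inhibitor of receptor signalling, was at 96.4, 111 and 100.2 CPM with glucose and 382, 380.1 and 304 CPM without it in control cells, and 141, 146 and 126 CPM with glucose and 118, 134 and 137 CPM without it in OGDH-depleted cells. The depleted libraries overlapped, and the interaction was -1.88 ± 0.17 (SE). DUSP6 and DUSP4, standard reporters of ERK output, were not called in either response. The 2 genes with a positive interaction were the feedback inhibitor SPRED1 and the factor ETV1.

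Of 20 NF-kB feedback and cytokine genes, 12 rose in each background, 2 fell in controls and none fell in depleted cells, with medians of 0.559 and 0.7. The interaction was lower for 1 gene, IL11, and higher for 4, CCL2, IL1B, CXCL1 and ICAM1 (median 0.0849). The count called lower was 0 without starved control replicate 3, OGDH-depleted replicate 1 or 3, or starved OGDH-depleted replicate 2 or 3, and 2 with DESeq2 and 3 with the GC offset, and the median was 0.202 without starved OGDH-depleted replicate 3. CCL2, a monocyte chemoattractant, was at 21.2, 20.7 and 22 CPM in fed control cells, 2.08, 2.74 and 1.98 CPM in starved control cells, 4.96, 5.3 and 3.81 CPM in fed OGDH-depleted cells and 8.8, 7.83 and 8.62 CPM in starved OGDH-depleted cells. It fell in controls, by 3.24, and rose in depleted cells, by 0.85 (edgeR adjusted p = 0.0067), giving the largest positive interaction among called genes with at least 10 CPM in a group, 4.08 ± 0.22 (SE) (edgeR adjusted p = 1.3e-06). IL1B, an inflammatory cytokine, was at 26, 26.2 and 24.4 CPM in the fed controls and 19, 19.5 and 15.5 CPM in the starved controls, against 54.9, 54.6 and 46.3 CPM in the fed depleted cells and 80.5, 83.4 and 72.3 CPM in the starved depleted cells. It moved in opposite directions in the same way, with an interaction of 1.11 ± 0.16 (SE) (edgeR adjusted p = 8.0e-04). TNFAIP3, NFKBIZ and IL6 rose in both with no called interaction.

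**Figure D4:**
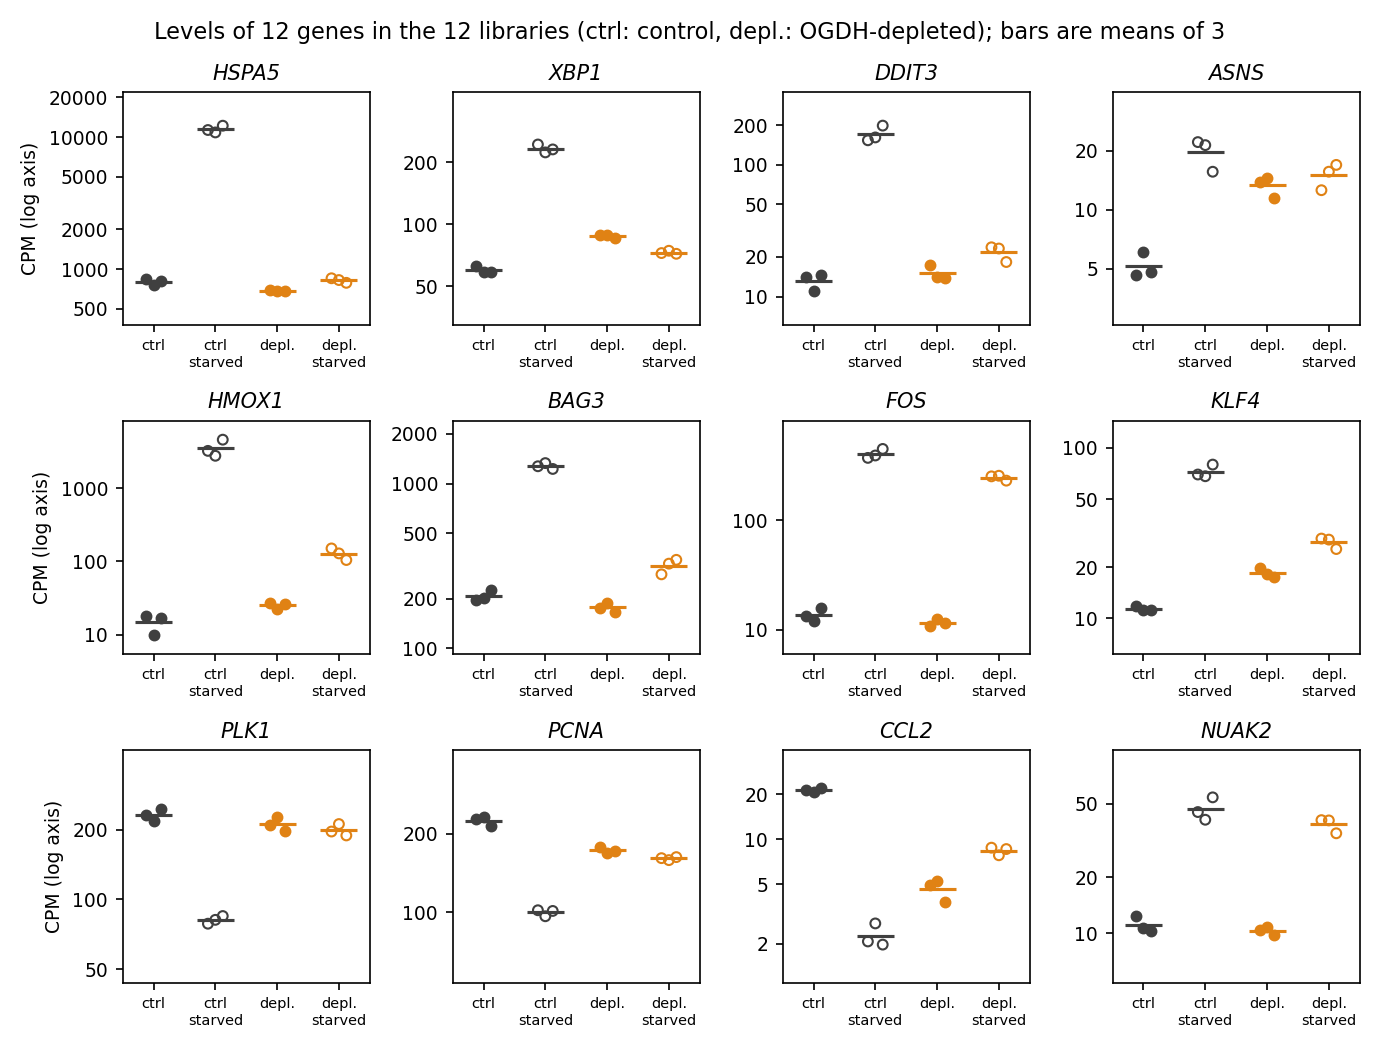
Each panel shows 1 gene, with CPM on a log axis and 1 dot for each of the 12 libraries in the 4 groups. The starved control dots lie above all others for HSPA5, XBP1 and DDIT3, both starved groups are raised for FOS and NUAK2, and the starved controls are the lowest group for CCL2, PLK1 and PCNA.

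TXNIP, an inhibitor of glucose uptake that is driven by MondoA when glucose is present, was read at 10.7, 10.8 and 11.1 CPM in fed control cells, 7.01, 8.11 and 6.65 CPM in starved control cells, 8.81, 8.26 and 8.74 CPM in fed OGDH-depleted cells and 3.57, 2.92 and 2.64 CPM in starved OGDH-depleted cells. It fell in both backgrounds, by 0.58 in controls and by 1.49 in depleted cells, and the interaction was -0.91 ± 0.18 (SE) (edgeR adjusted p = 0.0059). Of the 6 tested genes of its list (7 listed), 3 were called lower and none higher (median -0.745): TXNIP, its relative ARRDC4 and MLXIP, which encodes MondoA. The 3 fell in depleted cells, where TXNIP alone fell in controls too. ARRDC4 went from 3.93 ± 0.334 to 2.64 ± 0.198 CPM in depleted cells, and its interaction of -0.85 ± 0.19 (SE) was lost with no filter on low counts (edgeR adjusted p = 0.0903).

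Of 23 genes of glucose uptake and glycolysis, 4 were lower and 3 higher (median -0.0109). The count called higher was 14 without the 3 libraries that stood apart, with a median of 0.465. The median took either sign with 1 library left out (-0.0721 to 0.238). SLC2A3, a glucose transporter, was at 30.7, 31.4 and 33 CPM with glucose and 172, 197 and 200.4 CPM without it in control cells, and 30.6, 32.5 and 30.9 CPM with glucose and 74.2, 69.4 and 66.4 CPM without it in OGDH-depleted cells. It rose in both backgrounds with an interaction of -1.42. HK2, hexokinase, rose in controls alone, from 103 ± 14.3 to 199 ± 35.9 CPM, with an interaction of -1.06. PFKFB3 and SLC16A1 were the other 2 lower genes and PFKFB4, PGAM1 and LDHA the 3 higher ones.

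Among 15 tested targets of hypoxia-inducible factor (16 listed), 4 were lower and 1 higher (median -0.0856, and -0.168 to -0.0174 with 1 library left out). VEGFA, the angiogenic factor that ATF4 also induces, was at 101, 75.2 and 98.7 CPM in the fed controls and 236, 238 and 303 CPM in the starved controls, against 129.8, 133 and 131 CPM in the fed depleted cells and 109.8, 100.005 and 81.9 CPM in the starved depleted cells. Starved controls were the highest group and starved depleted cells were not above fed ones, with an interaction of -1.93 ± 0.21 (SE) (edgeR adjusted p = 9.7e-05). NDRG1 had an interaction of -1.55 ± 0.20 (SE). The other 2 lower genes were ADM and BNIP3L, and KDM3A was the higher one. CA9, EGLN1 and P4HA2 were not called in either response.

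Most mitotic genes had a positive interaction. Of 23 tested mitosis and G2/M genes (24 listed), 21 had a positive interaction and none a negative one (median 1.23). In controls 20 fell and none rose (median -1.13), and in depleted cells 1, CDC25C, rose and none fell (median 0.19). CDC20 and CENPE were the members without a called interaction. Single-library omission gave 15 to 20 genes called higher. Without the 3 libraries that stood apart 21 were called higher and 1 lower, and the median was 0.972.

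The cell cycle genes homology region, read by the DREAM and MuvB complexes, was looked for as TTTGAA on either strand. This short motif occurred in 15.4% of all windows, 10.1% of tested genes' windows and 12 of 19 mitotic windows (63.2%). It occurred in 17% of windows of genes with a positive interaction and 6.96% of those with a negative one. Mitotic genes with the motif and without it had called interactions, KIF20A among those without. The members without a called interaction were CDC20, which held the motif, and CENPE, which did not. PLK1 and CCNB2 are shown because both hold the motif close to the start.
PLK1, chr16:23678845-23678880, plus strand: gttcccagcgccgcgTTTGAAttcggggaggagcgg
CCNB2, chr15:59105102-59105137, plus strand: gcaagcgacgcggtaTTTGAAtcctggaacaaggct

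In the genes listed above, HSPA4L and SLC3A2 held matches to 2 of the 4 motifs, and those matches did not overlap. PLK1, a mitotic kinase, was read at 233, 219 and 246 CPM in fed control cells, 78.6, 81.6 and 84.8 CPM in starved control cells, 210.1, 228 and 198 CPM in fed OGDH-depleted cells and 197, 212 and 189 CPM in starved OGDH-depleted cells. The 3 starved controls were below the other 9 libraries, and the depleted libraries overlapped between conditions. The interaction was 1.42 ± 0.13 (SE) (edgeR adjusted p = 3.0e-05), from -1.51 in controls and -0.09 in depleted cells. KIF20A, a kinesin of cytokinesis, was at 128, 154 and 141 CPM in the fed controls and 34.9, 46.1 and 35 CPM in the starved controls, against 105, 113 and 102 CPM in the fed depleted cells and 114, 128 and 123 CPM in the starved depleted cells. Its interaction was 2.06 ± 0.17 (SE), with the starved controls again lowest. AURKA, a kinase of spindle assembly, had one of 1.32 ± 0.12 (SE), and TOP2A, a topoisomerase, one of 1.94. MKI67, the Ki-67 proliferation marker, was at 418, 878 and 553 CPM with glucose and 257, 269.9 and 164 CPM without it in control cells, and 415, 488 and 404 CPM with glucose and 365, 424 and 585 CPM without it in OGDH-depleted cells. The 3 outlying libraries held its highest fed control, lowest starved control and highest starved depleted values, which each enlarge the interaction. With them in the fit, the MKI67 interaction was 1.49 ± 0.39 (SE) (edgeR adjusted p = 0.021).

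Of 25 replication and G1/S genes, 13 had a positive interaction and 2 a negative one (median 0.62), and 20 and 2 did without the 3 libraries that stood apart. In controls 18 fell and 2 rose (median -0.74), and in depleted cells 1 fell (median -0.0525). PCNA, the sliding clamp of replication, was at 228, 233 and 214 CPM in fed control cells, 102, 96.6 and 101 CPM in starved control cells, 178, 169 and 172 CPM in fed OGDH-depleted cells and 161, 159 and 163 CPM in starved OGDH-depleted cells. The starved controls were lowest, with an interaction of 1.07 ± 0.11 (SE) (edgeR adjusted p = 5.8e-05). MCM6, a helicase subunit, had one of 1.13 ± 0.12 (SE). E2F2, an activator of replication genes, was at 13.1, 8.65 and 12 CPM in the fed controls and 1.12, 0.967 and 1.43 CPM in the starved controls, against 7.17, 7.42 and 7.95 CPM in the fed depleted cells and 5.51, 4.08 and 4.1 CPM in the starved depleted cells. It was the member that fell in depleted cells, and its interaction was 2.53. CCNE1, cyclin E1, went the other way, from 33.2 ± 0.718 to 69.8 ± 3.52 CPM in controls and from 31.6 ± 2.33 to 31.1 ± 1.49 CPM in depleted cells. CDC6, a licensing factor, was the other gene with a negative interaction.

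Of 23 tested cholesterol genes (24 listed), 3 were lower and 1 higher (median 0.0865), and 6 and 10 were without the 3 libraries that stood apart. The count called higher was 0 without any 1 of 7 libraries (replicate 1 of the fed controls, 2 of the starved controls, 1 and 2 of the starved depleted cells, and all fed depleted ones), 2 without control replicate 2 or with DESeq2, and 5 with the GC offset, and the median ran from -0.0175 to 0.107 with 1 library left out. HMGCS1, an early enzyme of the pathway, rose by 1.57 in controls and 0.45 in depleted cells, and INSIG1, which retains SREBP in the ER, by 1.87 and 1.22, with interactions of -1.12 ± 0.13 (SE) and -0.65 ± 0.11 (SE). The cholesterol carrier STARD4 was the third lower gene, while SQLE was not called in either response. Of 23 citric acid cycle and pyruvate dehydrogenase genes, none was lower and 2, DLAT and SDHD, were higher (median 0.216), with 10 higher and 1 lower without those 3 libraries. The count called higher was 0 without OGDH-depleted replicate 2, 1 without its replicate 1, without starved control replicate 1 or with no filter on low counts, and 5 with the GC offset.

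None of the 13 mitochondrially encoded mRNAs was called (median -0.29), and none passed an unadjusted p of 0.05 in edgeR. DESeq2 called none as well. With the 3 outlying libraries left out, all 13 were called lower, with a median of -2.3. With 1 library left out the median ran from -1.03 to 0.0315. The mitochondrial share of fragments in the other libraries was 4.97% and 6.35% in fed controls, 14.4% and 13.2% in starved controls, 5.16% to 6.98% in fed depleted cells, and 3.06% and 5.12% in starved depleted cells. The part of the 3 libraries' differences in this result was not tested.

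Of 21 tested lysosome and autophagy genes (23 listed), 5 were lower and none higher (median -0.302). The median was -0.158 without starved OGDH-depleted replicate 3, -0.19 without starved control replicate 3, -0.126 without all 3 outlying libraries and -0.191 with the GC offset, which called 8 lower. MAP1LC3B, the autophagosome membrane protein LC3B, was at 51.3, 64.5 and 56.3 CPM with glucose and 374, 355 and 292 CPM without it in control cells, and 68.3, 64.7 and 69.3 CPM with glucose and 79.3, 82.9 and 90.1 CPM without it in OGDH-depleted cells. Its starved controls stood apart, with an interaction of -2.25. WIPI1, which acts early in autophagosome formation, had one of -2.21, and ULK1, GABARAPL1 and CTSL were the other 3. The membrane proteins LAMP1 and LAMP2 and the proton pump gene ATP6V1A had no called interaction.

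Of 19 tested interferon and antigen presentation genes (22 listed), 6 were higher and 1, IRF1, lower (median 0.218). The count called lower was 0 with upper-quartile scaling and when any 1 of 9 libraries was left out (replicates 2 and 3 of the fed controls and of the starved depleted cells, 1 and 3 of the starved controls, and all fed depleted ones). The median was 0.0733 without starved control replicate 1, 0.0869 without its replicate 2, 0.107 without starved OGDH-depleted replicate 1, 0.132 without control replicate 1 and -0.103 with no filter on low counts. The 6 were IFIT1, IFIT3, MX1, OAS1, OAS3 and IFI44. IFI44 was at 29.4, 38.5 and 31.6 CPM in the fed controls and 12.2, 14.2 and 13.8 CPM in the starved controls, against 24.7, 26.2 and 25.5 CPM in the fed depleted cells and 29.9, 29 and 30.9 CPM in the starved depleted cells. It was lowest in starved controls, with an interaction of 1.54. Of 17 p53 targets, 2 were lower and 1 higher (median -0.122, and -0.296 to 0.0046 with 1 library left out). With no filter on low counts 4 were lower, and with the GC offset 6 were lower and 3 higher. GADD45A and GADD45B, a pair of stress-induced growth arrest genes, were the lower ones, and CDKN1A was not called in either response. Of 10 tested melanoma lineage genes (11 listed), SOX10 and S100B were higher and AXL, NGFR and TYRP1 lower, with S100B and TYRP1 at 2.79 CPM or less throughout.

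Among genes with a symbol and at least 10 CPM in a group, KRT16, XIRP1, HMOX1, ZNF469, HSPA6 and LBH were among those with the most negative interactions. KRT16, a wound keratin, was at 17, 15.3 and 27.9 CPM in starved controls and 0.31, 0.0833 and 0.137 CPM in starved depleted cells, and the fed groups held as few as 4 fragments over 3 libraries. XIRP1, an actin-binding protein of muscle, was at 37, 34.3 and 42.2 CPM in starved controls and 0.31, 0.375 and 0.547 CPM in starved depleted cells, with as few as 5 fragments in a fed group. Both genes passed the filter on low counts through the starved controls, which favours a lower call. Both calls were lost without OGDH-depleted replicate 3 (edgeR adjusted p = 0.0728 and 0.0583). LBH, a transcription cofactor, was at 15.7, 16.6 and 22.3 CPM in starved controls and 1.94, 1.83 and 1.28 CPM in starved depleted cells.

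Besides CCL2, the most positive interactions were those of SOX5, DIXDC1, ADORA1, MEOX2, EPHA7 and EYA1. DIXDC1, a Wnt pathway protein, was at 24.8, 33.4 and 26.1 CPM with glucose and 2.69, 3.33 and 3.28 CPM without it in control cells, and 12.3, 15.5 and 14.2 CPM with glucose and 16.1, 18.2 and 17.7 CPM without it in OGDH-depleted cells. Fed depleted cells were already below fed controls and starvation lowered the transcript in controls alone, with an interaction of 3.48 ± 0.21 (SE) (edgeR adjusted p = 2.7e-06). ADORA1, an adenosine receptor, had an interaction of 2.85 ± 0.22 (SE), MEOX2, a homeobox gene, one of 2.71 ± 0.23 (SE), and EPHA7, an ephrin receptor, one of 2.69 ± 0.24 (SE). MEOX2 and ADORA1 overlapped between fed and starved depleted libraries. For MEOX2 and EPHA7 the 3 outlying libraries held the highest fed control, lowest starved control and highest starved depleted values. Over the 19 alternatives the lowest interaction was 2.33 for MEOX2 and 2.29 for EPHA7.

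Among genes called in opposite directions in both responses, those with at least 10 CPM and the largest smaller response were ZNF469, SOX5, EYA1, ZNF608 and NFIA. ZNF469, a zinc finger gene linked to the corneal matrix, was at 2.06, 1.82 and 2.85 CPM in fed control cells, 26, 23.1 and 33.6 CPM in starved control cells, 3.002, 2.78 and 2.28 CPM in fed OGDH-depleted cells and 0.892, 0.875 and 0.684 CPM in starved OGDH-depleted cells. It rose in starved controls and fell in starved depleted cells (edgeR adjusted p = 0.0017), with an interaction of -5.32 ± 0.31 (SE) (edgeR adjusted p = 2.6e-06). SOX5, a SOX factor that modulates SOX10 targets, was at 55.8, 93 and 60.2 CPM in the fed controls and 17.2, 15.4 and 11.3 CPM in the starved controls, against 29.4, 29.1 and 27.3 CPM in the fed depleted cells and 58.8, 63.1 and 87.8 CPM in the starved depleted cells. Starvation lowered SOX5 in controls and raised it in depleted cells (edgeR adjusted p = 0.0058), and the starved depleted libraries reached the levels of fed controls. NFIA, ZNF608 and EYA1, also transcription regulators, fell by 1.497, 1.11 and 1.40 in controls and rose by 1.002, 1.01 and 1.28 in depleted cells. The edgeR adjusted p of these rises was 0.042, 0.0058 and 0.042. For SOX5, NFIA and EYA1 the 3 outlying libraries held the highest fed control, lowest starved control and highest starved depleted values. The EYA1 interaction was 1.71 without the 3 outlying libraries. Over the 19 alternatives the lowest interaction was 1.81 for NFIA (2.50 in the main fit) and 2.91 for SOX5 (3.54 in the main fit).

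For 123 genes called in both responses in the same direction, the 95% interval of the interaction lay within a 1.5-fold difference either way. NUAK2, a kinase related to AMPK, was at 12.4, 10.7 and 10.3 CPM in fed control cells, 45.1, 40.9 and 54.1 CPM in starved control cells, 10.4, 10.8 and 9.74 CPM in fed OGDH-depleted cells and 40.8, 40.6 and 34.6 CPM in starved OGDH-depleted cells. It rose by 2.07 and 1.90, with an interaction of -0.17 ± 0.18 (SE) and a 95% interval of -0.56 to 0.23. DUSP10, a phosphatase of p38 and JNK, rose by 1.21 and 1.47, with an interval of -0.01 to 0.52. In both backgrounds 3 others fell: CACNG8, an auxiliary subunit of glutamate receptors, by 1.18 and 1.23, HOXB6 by 1.16 and 1.17, and SOGA1 by 1.13 and 1.28. The interval of HOXB6, a homeobox gene, was -0.39 to 0.37.

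Genes that responded in depleted cells and had no called response in controls were fewer. Of these with a called interaction, an unadjusted p over 0.05 in controls and at least 10 CPM, those with the largest interactions were MT-TC, SPTBN5, SETD1B, LCAT and CEP170B, and all 5 fell. SETD1B, a histone H3K4 methyltransferase subunit, was at 70.7, 76.2 and 78.1 CPM in fed control cells, 90.1, 83.2 and 74.7 CPM in starved control cells, 83.4, 96.2 and 81.2 CPM in fed OGDH-depleted cells and 25, 32.3 and 28.5 CPM in starved OGDH-depleted cells. Starved depleted libraries were the lowest and the controls overlapped between conditions, with an interaction of -1.75 ± 0.17 (SE) (edgeR adjusted p = 4.3e-05). SPTBN5, a spectrin, went from 24.8 ± 1.67 to 7.78 ± 2.28 CPM in depleted cells, LCAT, a plasma cholesterol-esterifying enzyme, from 10.005 ± 0.71 to 4.63 ± 0.968 CPM, and CEP170B, a centrosomal protein relative, from 75.7 ± 2.37 to 38.4 ± 9.33 CPM. For all of SPTBN5, LCAT and CEP170B the 3 outlying libraries held the lowest fed control, highest starved control and lowest starved depleted values. The CEP170B interaction of -1.32 was -0.777 without the 3 outlying libraries. Over the 19 alternatives the smallest interaction in size was -1.343 for SPTBN5 (-2.01 in the main fit) and -1.072 for LCAT (-1.505 in the main fit). MT-TC, the mitochondrial tRNA for cysteine, was at 27.2, 52.3 and 35.9 CPM in the fed controls and 45.8, 57.7 and 37.5 CPM in the starved controls, against 50.2, 57.2 and 33.3 CPM in the fed depleted cells and 5.12, 6.75 and 5.79 CPM in the starved depleted cells. The tRNA genes adjoin other mitochondrial transcripts and counting used no strand, so fragments of antisense or unprocessed RNA cannot be told apart from tRNA.

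Median GC content differed between these groups of genes. It was 47.9% over the 17956 tested genes with a value, 50.7% for a negative interaction and 45.9% for a positive one. It was 56.4% for the 155 genes that fell in depleted cells alone (147 with a value), a group that includes SETD1B and SPTBN5, and 42.8% for the 47 that rose there alone (45 with a value). With a GC offset in the fit, chosen after seeing the data, those groups counted 221 and 101 genes. The interaction was then called for 5115 genes (27.6% of those tested), among them 92.8% of the 3196. The part of GC content in these responses was not tested beyond that fit.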

How the data were processed

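RNA from 12 A375 libraries was sequenced, and the authors deposited unnormalised fragment counts by gene name, made with featureCounts 2.0.1, as pairs over exons and without strand, per the file headers. The submitters' processing notes name hg38 and Subread, and the aligner is not given in the sources used here. Groups came from the sample titles. Of 61209 gene names, 18526 passed edgeR's filterByExpr (minimum count 10, minimum total 15) and held 99.9% of counts, and 80 names lay on more than 1 chromosome.

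The counts were fitted with TMM scaling and edgeR 4.0.16's quasi-likelihood test in R 4.3.3, with 1 mean per group over all 12 libraries, and p-values were adjusted by Benjamini-Hochberg. The contrast was the starvation response in OGDH-depleted cells minus that in controls. CPM values used TMM-scaled totals. The fit was tested on simulated data. Those counts were drawn independently for each gene, with no shift shared across genes as in the libraries that stood apart. Error rates under such a shift were not tested. Promoter windows from RefSeq (GRCh38.p14) were searched with Python 3.11.15 and pandas 2.3.3, and figures drawn with matplotlib 3.10.9. Alternatives were upper-quartile scaling, DESeq2 1.42.0, other filters, a replicate block and leaving out each library.

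The lists, their members and the named genes were chosen with earlier results of these data known. Named were 9 fixed genes, the 7 largest called interactions in each direction, the 2 smallest p per list for the lists up to MAPK output and for the cholesterol, hypoxia and TXNIP lists, and the 5 leading genes each with opposite, like and depleted-only responses, at 10 CPM or more in a group where ranked by size. Some genes are not reported here. Other list members were chosen after their values were seen. Counting without strand cannot tell a gene from its antisense partner.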

Additional observations from a re-analysis of the deposited data

Results flagged for a closer look

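The test of the difference between the 2 starvation responses picked out 3196 genes, and 60 of the 67 named genes were among them. That share follows in part from naming genes by their interaction. Each value below is the log2 starvation response in OGDH-depleted cells minus that in controls, from edgeR's quasi-likelihood fit. Among ER, glycosylation and secretory genes the interactions were -3.58 for HSPA5, -2.504 for HYOU1, -3.33 for HERPUD1, -1.92 for SYVN1, -2.22 for XBP1, -2.23 for ERN1, -0.85 for SEC11C, -1.59 for SEC24D, -1.94 for UAP1 and -1.73 for GFPT1. Among integrated stress response and amino acid supply genes the interactions were -3.17 for DDIT3, -0.76 for ATF4, -2.22 for CEBPG, -1.74 for ASNS, -2.91 for CTH, -1.27 for MTHFD2, -2.55 for SLC1A4, -1.55 for SLC7A1, -1.54 for WARS1 and -1.21 for SARS1. Among heat shock and oxidative stress genes the interactions were -2.67 for HSPB8, -4.95 for HSPA6, -1.78 for BAG3, -5.56 for HMOX1 and -1.80 for TXNRD1. Among immediate early and MAPK genes the interactions were -2.07 for KLF4, -1.96 for KLF2, -2.32 for DUSP5 and -1.88 for SPRY4. Among cholesterol, hypoxia and glucose-responsive genes the interactions were -1.12 for HMGCS1, -0.65 for INSIG1, -1.93 for VEGFA, -1.55 for NDRG1, -0.91 for TXNIP and -0.85 for ARRDC4. Among cell cycle genes the interactions were 1.42 for PLK1, 2.06 for KIF20A, 1.32 for AURKA, 1.07 for PCNA and 1.13 for MCM6. The positive interactions outside those groups were 4.08 for CCL2, 3.54 for SOX5, 3.48 for DIXDC1, 2.85 for ADORA1, 2.71 for MEOX2, 2.69 for EPHA7, 2.68 for EYA1, 2.12 for ZNF608, 2.499 for NFIA, 1.11 for IL1B and 0.49 for SLC30A1. The negative ones outside those groups were -5.32 for ZNF469, -3.28 for MT-TC, -2.01 for SPTBN5, -1.75 for SETD1B, -1.505 for LCAT, -4.21 for LBH and -1.32 for CEP170B. For 2 genes near 0 fragments in some groups the fitted interactions were -7.46 for KRT16 and -6.24 for XIRP1. Those last fitted values depend on the prior count added in the fit and are no bounds on a fold. The 7 named genes not picked out were OGDH, FOS, NUAK2, DUSP10, CACNG8, HOXB6 and SOGA1.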

How the results depend on the processing

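The interaction count of 3196 stayed within 1.5 times itself under upper-quartile scaling (3248), DESeq2 (3772), no filter on low counts (2695), a stricter filter (3024) and with 1 library left out (2293 to 3319). Of the 3196 genes, 96.7% were called again with upper-quartile scaling, 98% with DESeq2, 73% with no filter and 89% with the stricter one. With 1 library left out, 70.4% to 88.8% were. The count was 8077 (43% of those tested) without the 3 libraries that stood apart and 5115 (27.6%) with a GC offset, both chosen after seeing the data. The count for starvation in controls was 5037 to 7527 with 1 library left out and 11364 without the 3 libraries. The count for starvation in OGDH-depleted cells was 583 to 1959 with 1 library left out, 2031 with DESeq2, 3313 without the 3 libraries and 2086 with the GC offset. The causes were not tested.

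Whether replicate numbers pair the libraries is not settled. Over 18 pairs of libraries with the same number, correlations of deviations from group means ran from -0.687 to 0.638, with 7 over 0.1 and 5 under -0.1. The lowest was between replicate 3 of both starved groups, which are among the libraries that stood apart. Differences of that kind enter these correlations, so they cannot show whether libraries with the same number were handled together. With the replicate number as a block, the interaction count was 2759 and the count in OGDH-depleted cells 1011.

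Of the 60 named genes with a called interaction, 55 kept the call and direction in all 19 alternatives, and ATF4, KRT16, XIRP1, SLC30A1 and ARRDC4 lost it in some. Most of the 60 were named for a large interaction or a small p in these same libraries, which favours keeping the call. Of all 3196 calls, 70.4% to 88.8% were kept with 1 library left out. SLC30A1 reached an edgeR adjusted p of 0.064 with the replicate block. The sign changed only for genes without a called interaction. HOXB6 was at 0.015 with upper-quartile scaling, 0.018 with no filter, 0.13 with the GC offset and -0.073 to 0.12 with 1 library left out. OGDH was at 0.017 without the 3 libraries, 0.092 with the GC offset and -0.0997 to 0.062 with 1 library left out. CACNG8 was at 0.084 with the GC offset and -0.15 to 0.079 with 1 library left out. NUAK2 was at 0.041 without the 3 libraries and SOGA1 at 0.012 with the GC offset. SOGA1 was called without the 3 libraries (-0.28, edgeR adjusted p = 0.042).

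Low counts in fed groups limit fold values of KRT16 and XIRP1.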

Other observations

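The families described here were chosen after their values were seen, so their counts are descriptions. They are read beside 8.95% of tested genes called lower and 8.3% called higher for the interaction. On starvation 17% of tested genes rose and 17.5% fell in controls, and 2.42% rose and 4.76% fell in depleted cells. Of 45 tested clustered protocadherins, adhesion proteins that share constant exons, 21 had a positive interaction and none a negative one, with a median of 1.22. In controls 35 fell on starvation and in depleted cells none was called. PCDHB7 was at 4.88, 4.84 and 4.52 CPM in fed control cells, 1.18, 0.699 and 0.547 CPM in starved control cells, 4.48, 4.42 and 4.41 CPM in fed OGDH-depleted cells and 4.46, 4.08 and 3.97 CPM in starved OGDH-depleted cells. The starved controls were its lowest group, with an interaction of 2.49 ± 0.28 (SE) (edgeR adjusted p = 1.2e-04). PCDHB5 had an interaction of 2.27 and PCDHA2 one of 1.98. Fragments in shared exons can be split or dropped among the alpha and gamma genes, so their counts are uncertain. Of 33 tested HOX genes, body-pattern regulators, 9 were higher and 3 lower, and 23 fell in controls against 8 in depleted cells. HOXA5 had an interaction of 1.18 and HOXD1, which rose in controls and passed the filter on low counts through the starved controls alone, one of -3.47.

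The 3 tested small proline-rich genes, near-identical copies with uncertain counts, were called lower. SPRR2B passed the filter on low counts through the starved controls alone, which favours a lower call. SPRR2D was at 7.89, 10.1 and 8.2 CPM in the fed controls and 271, 226 and 154 CPM in the starved controls, against 11.2, 12.6 and 11 CPM in the fed depleted cells and 13, 17.6 and 24 CPM in the starved depleted cells. Of 36 tested keratin genes and pseudogenes, 5 were lower, 1 was higher and 30 were not called (median -0.395). KRT16 and KRT17, 2 of the 5, passed the filter through the starved controls alone, and without them 3 of 34 were lower (8.82%), against 8.76% of all genes tested that did not pass through that group alone. KRT6A, a stress keratin, was at 0.396, 0.216 and 0.795 CPM with glucose and 9.93, 8.6 and 11.3 CPM without it in control cells, and 0.44, 0.707 and 0.523 CPM with glucose and 0.582, 0.833 and 0.638 CPM without it in OGDH-depleted cells. KRT18, a simple epithelial keratin, had an interaction of -1.04 (edgeR adjusted p = 1.1e-04), and KRT6B was the higher one. Of 33 kinesins, 9 were higher and 1, KIF17, lower, and the 9 included the mitotic motors KIF11, KIF4A and KIF18B. Of 10 tested mitochondrial tRNA genes, 7 were lower (median -2.55), with 8 that fell in depleted cells and 4 in controls. None of 81 ribosomal protein genes was called by edgeR (median -0.133).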
